A study of Homo sapiens with 3 samples.

Results

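The 9 genes of the MHC class I antigen presentation pathway described here are HLA-B, HLA-C, HLA-E, B2M, TAP1, TAP2, TAPBP, PSMB8 and PSMB9. They were taken by name from a table of 44591 genes, all 9 were found, and all 9 were among the 12403 whose mean over the libraries reached 1 RPKM (reads per kilobase of gene length, scaled to the depth of the library). Caki-1 is an established human clear cell renal carcinoma line. Its cells were transfected with si-Control, a non-targeting siRNA, or with si-RBCK1 #1 or si-RBCK1 #2, which both target RBCK1 (HOIL-1), a subunit of the linear ubiquitin ligase complex, and RNA was taken 48 h later. Each condition had 1 library, so none of the differences can be set against a spread between replicates, and p-values were not computed. The 2 siRNAs were kept apart throughout, and both are compared with the same si-Control library. The samples are transfected cultures of a single line read in bulk, so a lower share of expressing cells and less RNA per cell cannot be told apart.

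MHC class I molecules show peptides from inside the cell to CD8 T cells. A heavy chain, encoded by the HLA class I genes, pairs with the light chain β2-microglobulin, and the pair is held by tapasin at the TAP transporter until a peptide binds. The peptides are cut by the proteasome, and interferon and NF-κB signaling are known to raise most genes of this pathway, including the inducible catalytic subunits that turn the standard proteasome into the immunoproteasome. Linear ubiquitin chains are best known for their part in NF-κB signaling.

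Library totals ran from 36344428 to 40442939 reads. RBCK1 (10616, chr20:388694-412783, plus strand) stood at 33.3 RPKM in si-Control cells (5294 reads), 9.97 RPKM after si-RBCK1 #1 (1735 reads) and 12.3 RPKM after si-RBCK1 #2 (1917 reads), so the depleted cells held 29.9% and 36.8% of the control level. Of 11 markers listed for renal tubule and carcinoma epithelium, PAX8, KRT8, KRT18, VIM, MET and CDH2 passed the filter. KRT19 missed it, and CA9, PAX2, EPCAM and CDH1 were under 1 RPKM in all 3 libraries. Summed over these 11 genes, si-Control cells had 1118 RPKM and the depleted cells 2040 and 2035 RPKM, most of it VIM (664, 1512 and 1392 RPKM). KRT8 and KRT18 were also higher with both siRNAs, while PAX8 (log2 ratios -0.59 and -0.22), CDH2 (-0.45 and -0.60) and MET (-0.36 and -0.40) were lower, and the part of these differences in the values below was not tested. Of 8 leukocyte markers, 7 were under 1 RPKM in every library, among them PTPRC, the common leukocyte antigen, and only CD68 was not (41.8, 51.0 and 52.3 RPKM). The summed level of the 8 was 41.9, 51.5 and 52.5 RPKM. All 4 endothelial markers and 4 of 5 fibroblast markers were also under 1 RPKM in every library.

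The siRNAs are shown as sense strands, with the 7 bases that pair with guide bases 2 to 8 in capitals, because a match to these bases alone can lower other transcripts.
si-RBCK1 #1: ggtgcaccttcATCAACAa
si-RBCK1 #2: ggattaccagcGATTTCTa
The full 19 bases of either siRNA were in the longest protein-coding transcript (GENCODE v29) of 1 gene, RBCK1, and of 0 of the 9 genes. The 7-base site of si-RBCK1 #1 was in the transcript of 1 of the 9 genes, B2M, and in 22.3% of 19669 transcripts. The site of si-RBCK1 #2 was in those of HLA-B and HLA-C, and in 25.9% of all transcripts. With the siRNA whose site the transcript holds, B2M was at 87.3%, HLA-B at 78.5% and HLA-C at 86.3% of the si-Control level, and with the other siRNA they were at 76.0%, 68.9% and 79.4%. The part of these sites in the values was not tested.

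Promoters are shown for 2 pairs of genes whose members are near relatives or near neighbors. HLA-B and HLA-C are paralogs, and TAP1 and PSMB9 are neighbors read away from each other, whose values below lie on opposite sides of si-Control. Each sequence is the 250 bases before the gene's start (RefSeq, GRCh38.p14), and for TAP1 the outer of its 2 starts was used, which lies 488 bases from that of PSMB9. Capitals mark matches on either strand to 2 GAAA words set 2 bases apart (the wide GAAA motif) or to GAANNGAAA (both are letters bound by interferon regulatory factors), to the kappa B motif, to TGACG (found in the X2 box of class I promoters) and to CCAAT. Matches that overlap run together.
HLA-B (chr6:31357180-31357429, minus strand): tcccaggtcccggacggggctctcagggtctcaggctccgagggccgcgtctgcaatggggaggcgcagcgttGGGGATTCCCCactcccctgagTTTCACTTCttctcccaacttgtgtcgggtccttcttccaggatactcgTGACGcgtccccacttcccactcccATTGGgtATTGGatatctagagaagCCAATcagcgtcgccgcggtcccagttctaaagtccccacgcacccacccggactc
HLA-C (chr6:31272093-31272342, minus strand): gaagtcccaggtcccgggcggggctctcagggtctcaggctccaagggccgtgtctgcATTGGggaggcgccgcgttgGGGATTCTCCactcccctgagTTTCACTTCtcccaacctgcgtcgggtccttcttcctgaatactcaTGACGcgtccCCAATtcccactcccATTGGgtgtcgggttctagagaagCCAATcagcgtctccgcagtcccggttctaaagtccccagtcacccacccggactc
TAP1 (chr6:32853705-32853954, minus strand): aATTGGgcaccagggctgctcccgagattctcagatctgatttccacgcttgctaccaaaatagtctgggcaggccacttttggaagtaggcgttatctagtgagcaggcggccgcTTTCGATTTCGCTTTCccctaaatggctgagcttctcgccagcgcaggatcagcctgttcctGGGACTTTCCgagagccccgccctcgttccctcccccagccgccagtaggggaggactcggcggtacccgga
PSMB9 (chr6:32853942-32854191, plus strand): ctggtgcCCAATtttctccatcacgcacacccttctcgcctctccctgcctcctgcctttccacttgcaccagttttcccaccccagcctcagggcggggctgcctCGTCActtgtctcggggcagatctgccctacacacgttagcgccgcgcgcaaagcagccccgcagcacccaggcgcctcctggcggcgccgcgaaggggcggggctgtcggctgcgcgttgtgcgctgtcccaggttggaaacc
In HLA-B and HLA-C the marked letters came in the same order, a kappa B match (in HLA-B a pair that overlap), then TTTCACTTC (GAANNGAAA on the other strand), then TGACG, then CCAAT on both strands, and HLA-C held a further CCAAT match before its kappa B match. TAP1 held TTTCGATTTC and TTTCGCTTTC, which are overlapping matches to the wide GAAA motif on the other strand, and 1 kappa B match, GGGACTTTCC. PSMB9 held neither in its own 250 bases, which run in the other direction and overlap those of TAP1 by a few bases.

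Promoter windows were found for 8 of the 9 genes, with 2 windows each for TAP1 and PSMB8. The wide GAAA motif was in those of B2M, TAP1, TAP2 and TAPBP (4 of 8 genes, beside 3.02% of 35116 promoter windows of the same length). GAANNGAAA was in those of HLA-B, HLA-C and TAP2 (3 of 8, beside 6.56%). The kappa B motif was in those of HLA-B, HLA-C, B2M, TAP1 and TAPBP (5 of 8, beside 9.96%). TGACG was in 6 of 8 (21.2% of windows) and CCAAT in 5 of 8 (32% of windows). The windows of PSMB8 and PSMB9 held none of the first 3 motifs. These are matches of letters and not measured binding sites.

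In all 3 libraries B2M had the highest level of the 9 genes, followed by HLA-B, HLA-C, HLA-E and PSMB8, and TAP1 and TAP2 were among the lowest. In si-Control B2M stood at rank 59 of 19233 protein-coding genes, HLA-B at 208, HLA-C at 466, HLA-E at 713, PSMB8 at 1253, TAPBP at 1758, PSMB9 at 1797, TAP2 at 3268 and TAP1 at 3707. The order of the lower genes differed between libraries. TAP1 was the lowest of the 9 with si-Control and with si-RBCK1 #2, while with si-RBCK1 #1 it stood above PSMB9 and TAP2. By exact Poisson intervals (95%), which cover counting error only, the levels of TAPBP and PSMB9 could not be separated in si-Control, nor could those of TAP2 and TAP1 with si-RBCK1 #2.

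**Figure D1:**
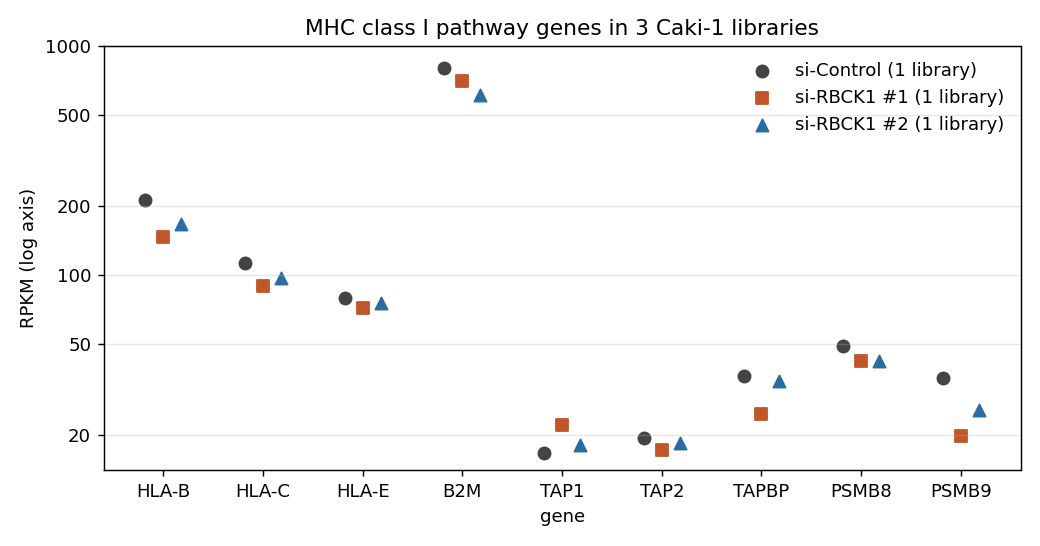
RPKM (log axis) of the 9 genes in the 3 libraries, 1 point per library. B2M lies between 610 and 803 RPKM and TAP1 between 16.7 and 22.1 RPKM, and TAP1 is the only gene whose si-Control point is the lowest of its 3.

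Against si-Control, 8 of the 9 genes were lower with each siRNA and 1, TAP1, was higher. No gene of the 9 reached a 2-fold difference: the count was 0 in both directions and with both siRNAs, while 3.27% of the 12403 genes were at least 2-fold lower with si-RBCK1 #1 (2.91% higher) and 2.27% with si-RBCK1 #2 (2.5% higher). Of all genes, 48.4% were lower by any size with si-RBCK1 #1 and 46.4% with si-RBCK1 #2, and 51.5% and 53.5% were higher. The median log2 ratio of the 9 genes was -0.22 with si-RBCK1 #1 and -0.21 with si-RBCK1 #2, and that of all genes was 0.02 and 0.03. Log2 ratios are on the log2(RPKM + 1) scale unless reads are named. The counting intervals given beside them are always on reads, without the added 1, so they are not centered exactly on these ratios. At a limit of 1.5-fold, PSMB9 with si-RBCK1 #1 was the 1 call among the 9 genes (11.6% of all genes were lower by that much and 12.1% higher), and there were 0 calls with si-RBCK1 #2 (9.32% lower and 11.3% higher).

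**Figure D2:**
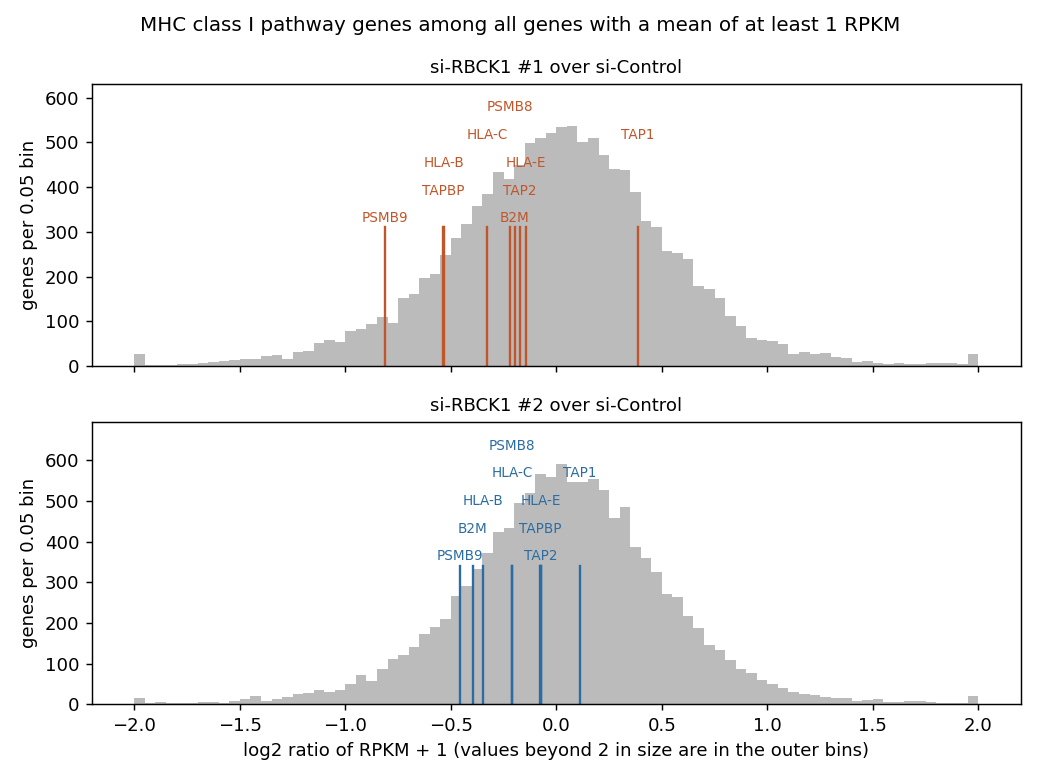
Histograms of the log2 ratio of RPKM + 1 for the 12403 genes, above for si-RBCK1 #1 and below for si-RBCK1 #2 (y axis, genes per bin), with lines at the 9 genes. The lines run from -0.81 (PSMB9, with 6.01% of all genes lower) to 0.39 (TAP1) above. Below they run from -0.46 (PSMB9, with 14% of all genes lower) to 0.11 (TAP1).

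The heavy chains were lower in the order HLA-B, HLA-C, HLA-E with both siRNAs. HLA-B (NCBI Gene 3106, chr6:31321643-31325022 on the minus strand in the table's coordinates, for which the processing notes name hg19) encodes a classical heavy chain. Its level was 212 RPKM in si-Control cells (12586 reads), 146 RPKM after si-RBCK1 #1 (9496 reads) and 166 RPKM after si-RBCK1 #2 (9718 reads). Both depleted libraries were below si-Control, at 68.9% and 78.5% of its level. The log2 ratios were -0.53 and -0.35, and on reads the 95% counting intervals (exact Clopper-Pearson) were -0.58 to -0.50 and -0.39 to -0.31.

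HLA-C (3107, chr6:31236526-31239913, minus strand), the other classical heavy chain among the 9 and a main ligand of killer cell inhibitory receptors, had 113, 89.5 and 97.2 RPKM in the same order of libraries, from 6601, 5740 and 5605 reads. Its log2 ratios were -0.33 (interval -0.38 to -0.28) and -0.21 (interval -0.26 to -0.16). HLA-E (3133, chr6:30457183-30461982, plus strand), a nonclassical heavy chain that binds leader peptides of other class I chains and is read by NKG2A on natural killer cells, had 79.2, 71.6 and 75.4 RPKM, from 7790, 7705 and 7291 reads. Its log2 ratios were the smallest of the 3 heavy chains, -0.15 (interval -0.19 to -0.10) and -0.07 (interval -0.12 to -0.03). The HLA-B to HLA-E ratio within a library was 2.67 with si-Control, 2.04 with si-RBCK1 #1 and 2.2 with si-RBCK1 #2, so HLA-B was lower relative to HLA-E in both depleted libraries (log2 -0.39, exact conditional interval on reads -0.45 to -0.33, and -0.28, interval -0.34 to -0.22).

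B2M (567, chr15:45003685-45010357, plus strand), the light chain shared by all class I molecules and the 1 gene of the 9 outside chromosome 6, had 803, 700.5 and 610.1 RPKM, from 29253, 27961 and 21884 reads. Of the 8 genes lower with both siRNAs it was the 1 whose ratio was lower with si-RBCK1 #2, by 0.20 on reads (interval -0.22 to -0.17), with log2 ratios of -0.20 (interval -0.22 to -0.17) and -0.40 (interval -0.42 to -0.37). The proportion of HLA-B to the light chain differed from si-Control after si-RBCK1 #1. The HLA-B to B2M ratio was 0.264, 0.208 and 0.272, lower than in si-Control only after si-RBCK1 #1 (log2 -0.34, exact conditional interval -0.39 to -0.30). After si-RBCK1 #2 its interval spanned 0 (log2 0.05, interval -0.0004 to 0.09). The HLA-E to B2M ratio was 0.0987, 0.102 and 0.124. Its log2 change was 0.05 with si-RBCK1 #1, where the interval spanned 0 (-0.002 to 0.10), and 0.32 with si-RBCK1 #2 (interval 0.27 to 0.38).

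The class I genes outside the 9 differed more widely. HLA-F, a nonclassical heavy chain found mostly inside cells, had 12.3, 5.90 and 4.99 RPKM, from 773, 405 and 308 reads, with log2 ratios of -0.95 and -1.15. HLA-G was under 1 RPKM in every library.

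The class I-like genes lay on both sides of si-Control. MICB, a stress-induced ligand of the NKG2D receptor that needs neither peptide nor β2-microglobulin, was at 10.6, 31.3 and 18.2 RPKM (log2 ratios 1.48 and 0.73). Its relative MICA was at 7.25, 14.9 and 10.3 RPKM (0.95 and 0.46). HFE, a class I-like regulator of iron uptake, was at 2.0, 3.75 and 4.30 RPKM (0.66 and 0.81), and FCGRT, the neonatal Fc receptor, was at 6.70, 3.80 and 5.23 RPKM (-0.68 and -0.31). Of the 10 genes in this list 8 passed the filter, 4 were higher and 4 lower with each siRNA, and the medians were 0.22 and 0.19. The sign of these medians rests on the filter, since with a mean of at least 5 RPKM they were -0.24 and -0.25.

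Class I heavy chain genes are alike in sequence, so reads can be shared among them. Of the 50-base stretches in the longest reference transcript, 2.54% for HLA-B, 6.71% for HLA-C and 5.13% for HLA-E were also in a transcript of another gene. The class I pseudogene HLA-H was at 18.8, 12.4 and 14.2 RPKM (log2 ratios -0.56 and -0.38). The cells carry their own alleles, which the reference does not hold, and their part in these values was not tested. Of the 7 pseudogenes and noncoding neighbors that the table holds, 4 passed the filter. All 4 were lower with each siRNA (48.4% of all genes were lower with si-RBCK1 #1 and 46.4% with si-RBCK1 #2). Among the 4 was the noncoding HCP5 at 7.51, 4.34 and 4.51 RPKM (-0.67 and -0.63).

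**Figure D3:**
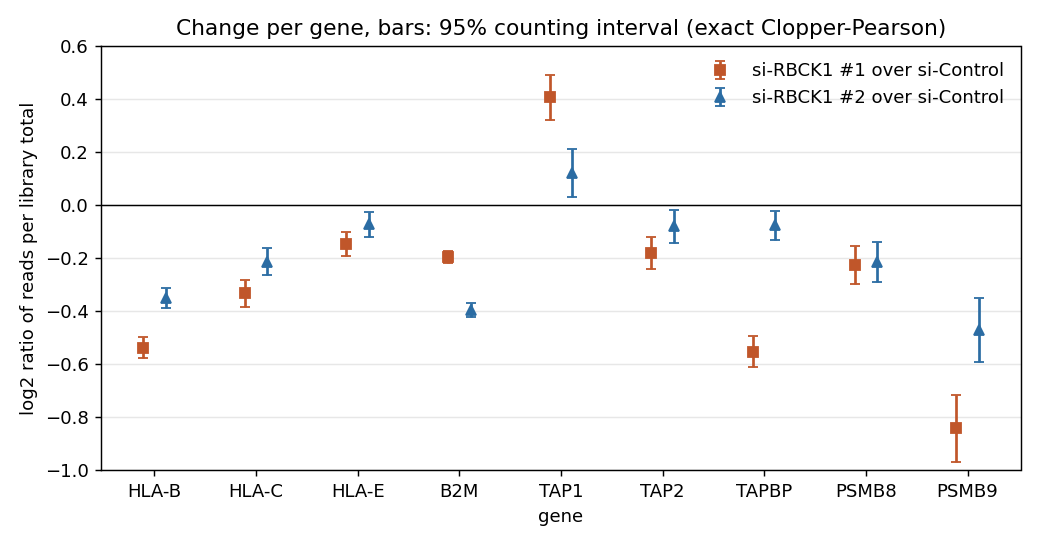
Log2 ratio of reads per library total to si-Control (y axis) for the 9 genes, squares for si-RBCK1 #1 and triangles for si-RBCK1 #2, with 95% counting intervals as bars. The bars of 8 genes lie below 0 and those of TAP1 above 0 with both siRNAs.

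The subunits of the transporter lay on opposite sides of si-Control. TAP1 (6890, chr6:32812986-32821748, minus strand) had 16.7 RPKM in si-Control cells (1936 reads), 22.1 RPKM after si-RBCK1 #1 (2810 reads) and 18.1 RPKM after si-RBCK1 #2 (2070 reads). Both depleted libraries were above si-Control, at 133% and 109% of its level, with log2 ratios of 0.39 (interval on reads 0.32 to 0.49) and 0.11 (interval 0.03 to 0.21). TAP2 (6891, chr6:32789610-32806600, minus strand), which forms the transporter with TAP1, had 19.4, 17.1 and 18.3 RPKM, from 4451, 4299 and 4144 reads, with log2 ratios of -0.17 (interval -0.24 to -0.12) and -0.08 (interval -0.14 to -0.02). The TAP1 to TAP2 ratio was 0.86, 1.29 and 0.988 in the 3 libraries, a log2 change of 0.59 (exact conditional interval 0.48 to 0.69) and 0.20 (interval 0.09 to 0.31). Of the 50-base stretches of TAP2, 35.8% were also in a transcript that GENCODE lists as AL669918.1, the largest shared part among the 9 genes. No other gene with a value in these data overlapped TAP2, and the part of the shared stretches in its values was not tested.

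TAPBP (6892, chr6:33267471-33282164, minus strand) encodes tapasin, the chaperone that bridges the class I molecule and TAP. Its levels were 36.2, 24.7 and 34.4 RPKM, from 5457, 4073 and 5095 reads. Here the siRNAs differed most, with log2 ratios of -0.54 (interval -0.61 to -0.49) and -0.07 (interval -0.13 to -0.02), and si-RBCK1 #2 was above si-RBCK1 #1 by 0.48 on reads (interval 0.42 to 0.54). Counting intervals of that direct comparison lay above 0 for 6 of the 9 genes (33.4% of all genes) and below 0 for 2, B2M and TAP1 (29.1%).

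Of 10 other genes of peptide loading and trimming, all 10 passed the filter, with medians of -0.12 and 0.04, and the second was -0.014 with libraries scaled to equal medians. CALR, the chaperone calreticulin of the loading complex, was at 546, 869 and 861 RPKM (log2 ratios 0.67 and 0.66), and its partner PDIA3 at 138, 161 and 165 RPKM (0.22 and 0.26). ERAP1, which trims peptides in the endoplasmic reticulum, was at 35.6, 28.5 and 25.9 RPKM (-0.31 and -0.44). LNPEP, a trimming peptidase of endosomes, was at 8.01, 11.1 and 12.9 RPKM (0.43 and 0.62).

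PSMB8 and PSMB9 encode catalytic subunits of the immunoproteasome. PSMB9 (5698, chr6:32821938-32827628, plus strand) had the lowest log2 ratio of the 9 genes with each siRNA. Its level was 35.4 RPKM in si-Control cells (1370 reads), 19.7 RPKM after si-RBCK1 #1 (837 reads) and 25.5 RPKM after si-RBCK1 #2 (973 reads). Both were below si-Control, at 55.8% and 72.2%, with log2 ratios of -0.81 (interval -0.97 to -0.72) and -0.46 (interval -0.59 to -0.35). Of all genes, 6.01% had a lower ratio than PSMB9 with si-RBCK1 #1 and 14% with si-RBCK1 #2. Of its 50-base stretches 12.1% were also in a GENCODE transcript of PSMB8-AS1, and their part in its values was not tested.

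PSMB9 and TAP1 are 189 bases apart in the table and are read in opposite directions from the stretch whose promoter sequences are shown above. The PSMB9 to TAP1 ratio was 2.12 with si-Control, 0.894 with si-RBCK1 #1 and 1.41 with si-RBCK1 #2, a log2 change of -1.25 (exact conditional interval on reads -1.4 to -1.1) and -0.59 (interval -0.74 to -0.44). A ratio within a library does not depend on how libraries are scaled. It shows that the neighbors changed unequally between these libraries.

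PSMB8 (5696, chr6:32808494-32812712, minus strand) had 48.9, 41.8 and 42.1 RPKM, from 3203, 2998 and 2716 reads. Its log2 ratios were nearly equal, -0.22 (interval -0.30 to -0.15) and -0.21 (interval -0.29 to -0.14), and si-RBCK1 #2 differed from si-RBCK1 #1 by 0.01 on reads (interval -0.06 to 0.09). The antisense gene PSMB8-AS1 overlaps PSMB8 by 850 bases and TAP1 by 1292 bases on the other strand, and was at 2.54, 1.59 and 1.80 RPKM. The labels name a directional library kit, but whether reads were counted by strand is not given in the sources used here.

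The inducible subunits were lower relative to the standard subunits whose places they take. PSMB10, the third inducible subunit, was at 82.1, 54.7 and 65.3 RPKM (log2 ratios -0.58 and -0.33). The standard subunits PSMB5 (47.3, 83.3 and 70.1 RPKM) and PSMB6 (89.0, 125 and 102 RPKM) were higher with both siRNAs, and PSMB7 (109, 127 and 101 RPKM) was higher with si-RBCK1 #1 and lower with si-RBCK1 #2. The PSMB8 to PSMB5 ratio was 1.03 with si-Control, 0.502 with si-RBCK1 #1 and 0.601 with si-RBCK1 #2, a log2 change of -1.04 (interval -1.14 to -0.94) and -0.78 (interval -0.89 to -0.68).

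The PSMB9 to PSMB6 ratio was 0.398, 0.158 and 0.25, a log2 change of -1.33 (interval -1.48 to -1.19) and -0.67 (interval -0.81 to -0.53). The PSMB10 to PSMB7 ratio was 0.754, 0.43 and 0.648, a log2 change of -0.81 (interval -0.94 to -0.68) and -0.22 (interval -0.35 to -0.09). All 3 ratios were highest with si-Control and lowest with si-RBCK1 #1. The inducible subunits and the proteasome activators PSME1 to PSME4 did not share 1 direction: PSME3, which encodes a nuclear activator, was at 55.8, 95.6 and 73.3 RPKM (log2 ratios 0.77 and 0.39), while PSME1 was at 67.0, 62.0 and 59.7 RPKM (-0.11 and -0.17).

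**Figure D4:**
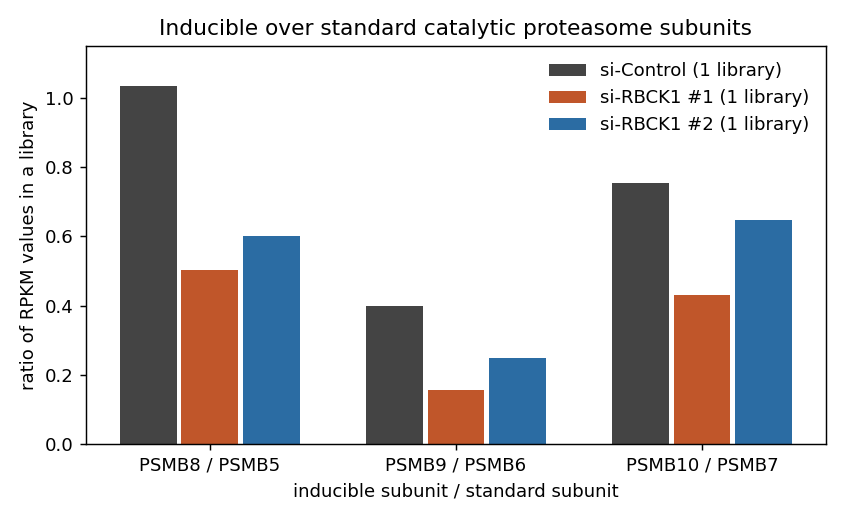
Ratio of RPKM values within a library (y axis) of each inducible catalytic proteasome subunit to its standard counterpart, 1 bar per library and no error bars. The si-Control bar is the highest of each 3, at 1.03, 0.398 and 0.754.

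Factors that bind class I promoters were also measured. Of 18 listed genes 16 passed the filter, and the medians were -0.47 and -0.45. Of the 16, 14 were lower with si-RBCK1 #1 (48.4% of all genes) and 13 with si-RBCK1 #2 (46.4% of all genes). IRF1, an interferon regulatory factor, had 39.7, 17.4 and 14.2 RPKM, from 5215, 2508 and 1833 reads, with log2 ratios of -1.14 and -1.42. NFKB1, a subunit of NF-κB, was at 27.7, 16.6 and 13.9 RPKM (-0.70 and -0.95), while its partner RELA was at 43.5, 48.3 and 49.7 RPKM (0.15 and 0.19).

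CREB1, which binds the X2 box, was at 7.82, 4.53 and 4.69 RPKM (log2 ratios -0.67 and -0.63). NFYB and NFYC, subunits of the CCAAT-binding factor, had log2 ratios of -0.73 and -0.57 and of -0.48 and -0.51, and the third subunit NFYA had 0.02 with each siRNA. NLRC5, the class I transactivator, was at 8.71, 6.57 and 8.24 RPKM (-0.36 and -0.07), and CIITA, its class II counterpart, was under 1 RPKM in every library. At a limit of 1.5-fold, CREB1, IRF1 and NFKB1 were among those lower with each siRNA, and 0 factors of this list were higher. Of all 12403 genes, 774 were lower and 926 higher by that much with both siRNAs.

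The list of interferon receptors and their kinases also took in the inhibitors SOCS1, SOCS3 and PTPN2. All 10 genes passed the filter, with medians of 0.11 and -0.07. JAK1, a kinase of both interferon receptor types, was at 165, 114 and 107 RPKM (log2 ratios -0.54 and -0.63), and SOCS3, a feedback inhibitor of cytokine receptors, was at 26.8, 59.6 and 32.3 RPKM (1.13 and 0.26). The receptor chains IFNGR1 (13.8, 15.1 and 12.9 RPKM) and IFNAR1 (7.42, 7.99 and 7.34 RPKM) had log2 ratios of 0.12 and -0.09 and of 0.09 and -0.01. Of 8 interferon genes, 1 passed the filter, IFNE at 1.62, 0.956 and 1.51 RPKM. IFNB1 was under 1 RPKM and IFNG was listed at 0 in every library.

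Among 5540 other protein-coding genes whose mean reached 10 RPKM, the 5 whose log2 ratios lay nearest to the medians of the 9 genes, by Euclidean distance over the 2 ratios, were RNF19A, HKDC1, NUP58, RFC1 and NACA. Their distances ran from 0.00845 to 0.0178, and 200 genes lay within 0.1. The 3 libraries give each gene only 2 ratios, so a match of this kind is common. The counting intervals of the 9 genes are to be read in the same way: those on reads lay below 0 for 8 of 9 with each siRNA, but this was so for 37.5% of all genes with si-RBCK1 #1 and for 34.1% with si-RBCK1 #2, and above 0 for 40.2% and 41%.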

How the data were processed

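RNA from 3 Caki-1 cultures was sequenced, 1 library per condition. The authors deposited 1 table with an RPKM value per gene and library. The submitters' processing notes name Trimmomatic, FastQC, TopHat2, HTSeq and the build hg19, and the gene annotation is not given in the sources used here. The table also holds the authors' own means, fold changes, p-values and q-values, which were not used. Its 1 entry that is not a number was left out. The methods and the sample records name different sequencing providers.

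Log2 ratios were computed on RPKM + 1 over the 12403 genes whose mean reached 1 RPKM, and calls are by a fold of 2 alone. Library totals were read from short RNAs of up to 200 nt, where the smallest values equal 1 read. For each gene the smallest length (up to 50000 nt) that gives whole reads in all 3 libraries within 0.002 reads was searched, which succeeded for 12388 genes (99.9%). The count-based models were not run, since no group has replicates. The exact Clopper-Pearson intervals (95%) take in the error of counting alone.

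The 9 genes and all lists were chosen with earlier results of these data known. Named genes are RBCK1, the 9 genes, listed genes past 1.5-fold (0.585 on the log2 scale) with both siRNAs or of interest by their role, and the 5 nearest genes. Those of interest by role were picked after their values were seen. The motifs and the pairs of genes for within-library ratios were also chosen after the data were seen. Alternatives were pseudocounts of 0.1 and 5 RPKM, equal medians or totals, other filters and fold limits, and read ratios. Promoters came from RefSeq (GRCh38.p14) and transcripts from GENCODE v29, both used for sequence only. Values of some listed genes are not reported here. The steps were tested on simulated data. The tools were scipy 1.17.1, pandas 2.3.3 and numpy 2.4.6 under Python 3.11.15, with matplotlib 3.10.9 for figures.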

Additional observations from a re-analysis of the deposited data

How the results depend on the processing

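No paired analysis was possible because every group is a single library. Among the log2 ratios of the 9 genes, 0 of 90 changed sign under the alternatives. For most of them this was fixed in advance, since a changed pseudocount or a read ratio cannot change a sign. Both scalings of libraries lowered all ratios, so only those of TAP1, which were above 0, could have changed sign. Of the 90, 81 moved by no more than the arm of the counting interval (its mean reach to either side). Libraries scaled to equal totals shifted all ratios by -0.057 and -0.033, and equal medians by -0.0094 and -0.051. A fold of 1.5 gave 1 of the 9 genes lower with si-RBCK1 #1.

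Some list medians changed sign. For class I-like genes they were -0.030 and -0.036 with no filter and -0.24 and -0.25 with a mean of at least 5 RPKM, since different genes then count. That of proteasome activators with si-RBCK1 #1 was -0.030 with equal totals, and that of loading and trimming genes with si-RBCK1 #2 was -0.014 with equal medians. Other medians moved but kept their sign. For class I pseudogenes and neighbors with si-RBCK1 #1, -0.51 became -0.31 with a pseudocount of 5 RPKM and -0.22 with no filter. With si-RBCK1 #2, -0.36 became -0.17 with no filter. For class II genes with si-RBCK1 #2, 0.35 became 0.024 with no filter. The causes were not tested beyond the change of genes counted.

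The number of all genes at least 2-fold different from si-Control with si-RBCK1 #1 and si-RBCK1 #2 was 766 and 591. It was 1346 and 1085 with a pseudocount of 0.1 RPKM, 219 and 198 with 5 RPKM, 455 and 391 with a mean of at least 5 RPKM, 2934 and 2556 at a fold of 1.5, and 47 and 31 at a fold of 4. With 1 library per condition, depth limits only the counting error, and the spread between cultures is unknown.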

Other observations

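MHC class II genes, which present peptides from outside the cell and are usually kept to immune cells, were low in these cells. Of 11 listed genes 3 passed the filter, each with log2 ratios above 0 (51.5% of all genes were higher with si-RBCK1 #1 and 53.5% with si-RBCK1 #2), and the medians were 0.23 and 0.35. Counting intervals on reads lay above 0 for 2 of the 3 with each siRNA (40.2% and 41% of all genes). CD74, the invariant chain that guards the class II groove, had 11.3, 13.5 and 17.1 RPKM in si-Control, si-RBCK1 #1 and si-RBCK1 #2, from 704, 917 and 1042 reads, with log2 ratios of 0.23 and 0.55. HLA-DPA1 was at 2.84, 4.45 and 3.90 RPKM (0.50 and 0.35), and HLA-DMA, part of the class II peptide editor, was at 2.39, 2.64 and 2.97 RPKM (0.10 and 0.23), with intervals that spanned 0 (-0.25 to 0.55 and -0.08 to 0.71). HLA-DRA was listed at 0 in all 3 libraries.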
